A study of Mus musculus with 6 samples.

Results

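The Hedgehog genes examined in mouse liver were 9: the ligands Ihh and Dhh, the receptor Ptch1, the signal transducer Smo, the transcription factors Gli1, Gli2 and Gli3, and the inhibitors Hhip and Sufu. They were chosen by name, as all probes on the microarray whose gene symbol was one of these, and account for 14 of 55681 probes and 9 of 24239 gene symbols. The liver RNA came from male B6C3F1 mice, a hybrid strain, aged 7 weeks. The control group was 3 mice given corn oil by mouth and the TCE group 3 mice given trichloroethylene, an industrial solvent, at 1000 mg/kg b.w. per day, both for 5 days. Each mouse had 1 array, so every value is from a separate animal. Whole liver was used, so that fewer cells of a type and less RNA per cell cannot be told apart.

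Hedgehog proteins are secreted signals. In the absence of ligand, Ptch1 holds Smo inactive, and when a ligand binds Ptch1 this block is released and Smo activates the GLI factors through the primary cilium. Hhip binds the ligands and Sufu holds the GLI factors in the cytoplasm. Gli1, Ptch1 and Hhip are themselves among the genes that the pathway turns on, so their mRNA is commonly read as a measure of its activity. In adult liver the pathway is known mainly for signals between epithelial cells and the stellate and endothelial cells beside them, and for its rise after injury.

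Among the members, Ihh alone passed the test, and it fell 4.2-fold in TCE mice. Of the genes that report pathway activity, Ptch1 and Hhip did not pass in either direction, and Gli1 was not measurable. Of 14 member probes, 7 from 5 genes (Ihh, Dhh, Ptch1, Smo and Hhip) were measured clearly over background in every mouse of a group and were tested, among 22731 probes. Gli1, Gli2, Gli3 and Sufu had no such probe and no test. A change was called at an adjusted p of 0.05 or less (limma, Benjamini-Hochberg over all tested probes) and a fold of 2 or more. Of the 5 member genes tested, each read by its brightest tested probe, 1 was lower and 0 were higher, where 0.429% of all 13284 genes tested were called lower and 1.3% higher (1.73% in either direction). Of probes, 1 of 7 was called, and it was lower, against 0.383% lower, 1.03% higher and 1.41% in all among the probes tested. The study had already reported the fall of Ihh from these arrays when the members were chosen, so these counts are no evidence about the family. At an unadjusted p under 0.05, limma gave 1 probe more, Ptch1 probe 1, where 19.1% of all genes tested had such a p. This probe was higher in TCE and entered the test only through the TCE mice, as no control value was well above background. Ptch1 probe 2, the brighter, had no such p. The methods' t-test gave the same count of 1 called probe without adjustment and 0 after it.

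Ihh encodes Indian hedgehog, a ligand best known from growing bone. Its promoter is shown because the study examined DNA methylation in this region, in an experiment that was not analysed here, and that of Dhh is shown as the other ligand. Both are the 250 bases before the RefSeq transcription start, read from RefSeq for GRCm38.p6, each on the minus strand, with every CpG in capitals. The Ihh stretch is chr1:74951673-74951922 and the Dhh stretch is chr15:98898541-98898790.
Ihh: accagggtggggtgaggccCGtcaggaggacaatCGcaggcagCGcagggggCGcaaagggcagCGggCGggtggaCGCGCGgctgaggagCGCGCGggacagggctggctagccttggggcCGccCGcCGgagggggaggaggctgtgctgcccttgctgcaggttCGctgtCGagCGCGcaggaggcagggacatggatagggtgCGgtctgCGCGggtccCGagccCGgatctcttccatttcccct
Dhh: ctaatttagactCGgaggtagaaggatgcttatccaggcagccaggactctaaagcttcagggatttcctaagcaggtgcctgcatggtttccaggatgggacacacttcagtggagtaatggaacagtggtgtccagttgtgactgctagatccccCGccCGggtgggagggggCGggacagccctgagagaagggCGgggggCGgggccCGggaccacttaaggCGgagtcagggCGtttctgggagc
The Ihh stretch holds 24 CpGs and the Dhh stretch 9. With the 50 bases after the start included, Ihh has 30 CpGs at 72.7% G and C, more CpGs than 88.3% of the 32851 mouse promoter windows of this length, whose median is 7. Dhh has 12 CpGs in the same window, more than 60.4% of promoters. The antisense bisulfite primer given by the study for Ihh matched the converted sequence at bases 99 to 120 of the stretch above, with 12 of the CpGs before it. The sense primer was not found in the window. The product length that the study lists reaches beyond the first base of the stretch, so these 12 CpGs would lie within the amplified region. RefSeq windows were found for 8 of 9 members, all but Gli1. The letters of the GLI consensus site, GACCACCCA on either strand, occurred in 0 of these 8 windows and in 0.253% of all promoters. Its last letters, CCACCCA, which lie within the longer motif, occurred in 0 of 8 and in 9.3% of all promoters.

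Ihh was read by 1 probe (chr1:74991906-74991965, mm9, minus strand), with a signal well above background in all 6 mice. Its log2 signal was 8.74, 9.38 and 8.96 in control mice 1, 2 and 3, and 6.78, 7.30 and 6.80 in TCE mice 1, 2 and 3. Every TCE mouse lay below every control mouse, as was so for 10.2% of all tested probes. The gap between the groups was wider than the spread within either. The mean was 9.03 ± 0.32 (SD, n = 3) in control and 6.96 ± 0.30 (SD, n = 3) in TCE. The log2 change was -2.07 (SE 0.22, 95% interval -2.61 to -1.53), with an adjusted p of 0.0123 in limma. The exact permutation test on this probe gave p = 0.1, the smallest possible with 3 mice against 3. Of the 57 genes called lower, 8 had a larger fall than Ihh. Control mouse 1 was hybridized on a slide of its own and scanned apart from the other 5. Within the shared slide the log2 change of Ihh was -2.21 (SE 0.24, limma adjusted p = 0.0347). With slide as a block it was also -2.21 (adjusted p = 0.0318), which is the same contrast, as the block takes control mouse 1 out. The call was lost without control mouse 3 (limma adjusted p = 0.059, log2 change -2.10) and without TCE mouse 1 (adjusted p = 0.0563, log2 change -1.98), while the fall kept its size.

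Dhh encodes desert hedgehog, a ligand known from testis and peripheral nerve. Its probe (chr15:98723465-98723524, mm9, minus strand) gave log2 signals of 5.14, 6.91 and 5.61 in control mice and 4.95, 5.00 and 2.91 in TCE mice. The signal was well above background in all 3 control mice but in only 1 TCE mouse. The groups did not overlap, as was so for 25.7% of all tested probes (10.2% with TCE lower), but TCE mouse 2 lay just under control mouse 1. The mean was 5.89 ± 0.92 (SD, n = 3) in control and 4.29 ± 1.19 (SD, n = 3) in TCE. The probe entered the test through the control mice, so its estimate rests on TCE values that were mostly not well above background. The log2 change of Dhh was -1.60 (SE 0.69, 95% interval -3.27 to 0.07), which did not pass the test (limma adjusted p = 0.296). It was -0.91 without TCE mouse 3, the lowest value, and -0.50 with the normexp background correction (adjusted p = 0.379), so the size of the change at this dim probe depends on how background is treated.

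**Figure D1:**
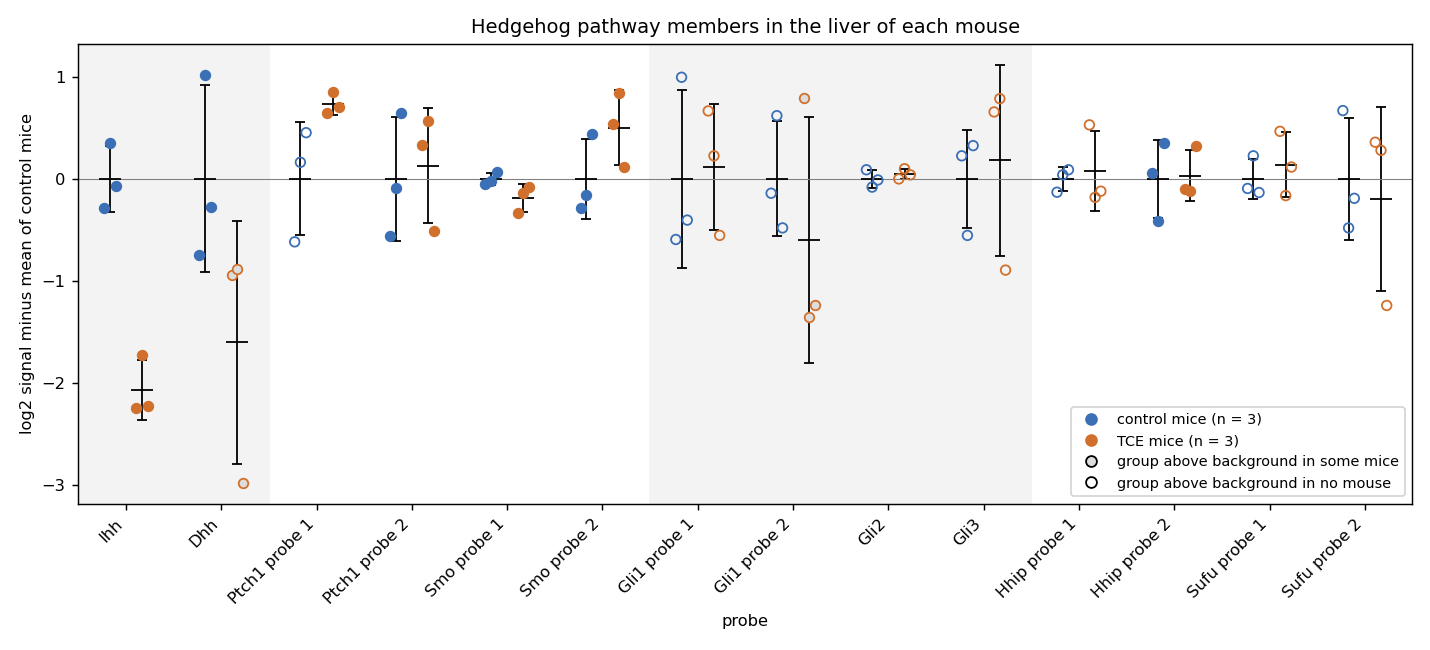
Log2 signal of each of the 14 member probes in each mouse, minus the mean of the 3 control mice for that probe. Points are mice (blue control, orange TCE), bars are the mean and SD, and filled points belong to groups well above background in all 3 mice. The 3 TCE mice lie below all control mice for Ihh, Dhh and Smo probe 1, and above them for Ptch1 probe 1. Groups did not overlap for 25.7% of all tested probes (10.2% with TCE lower). They overlap for Ptch1 probe 2, Smo probe 2 and Hhip probe 2.

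Ptch1, the ligand receptor and a target of the pathway, was read by a pair of probes. Probe 1 (chr13:63610298-63610357, mm9, minus strand) gave 3.73, 4.51 and 4.80 in control mice, none of them well above background, and 4.99, 5.20 and 5.05 in TCE mice, all well above it. The signal was brighter in every TCE mouse than in every control mouse, as was so for 15.5% of all tested probes. The probe entered the test through the TCE mice, and since the control values were not measurable, no fold is given. The TCE mean was 1.23-fold the mean of the lowest signals well above background on the control arrays. That level is not a strict detection limit, so this is only an approximate guide. The probe did not pass (limma adjusted p = 0.24). Probe 2 (chr13:63612879-63612938), well above background in every mouse, gave 6.54, 7.01 and 7.74 in control and 7.43, 7.66 and 6.59 in TCE mice. Here the groups overlapped across their whole range. The log2 change of probe 2 was 0.13 (SE 0.39, 95% interval -0.81 to 1.07, limma adjusted p = 0.898).

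Smo, which carries the signal into the cell, was also read by a pair of probes, on the plus strand. Probe 1 (chr6:29711225-29711284, mm9) gave 10.53, 10.56 and 10.64 in control mice and 10.24, 10.44 and 10.50 in TCE mice. Every TCE mouse was below every control mouse, as for 10.2% of all tested probes, but by a small margin. The log2 change was -0.18 (SE 0.12, 95% interval -0.47 to 0.10, limma adjusted p = 0.472), or -0.32 with the normexp background correction. Probe 2 (chr6:29710919-29710978) gave 6.37, 6.50 and 7.10 in control mice and 7.20, 7.5 and 6.77 in TCE mice. On this probe the groups overlapped and the mean was higher in TCE, with a log2 change of 0.50 (SE 0.26, 95% interval -0.13 to 1.14, limma adjusted p = 0.381). The probes therefore gave opposite signs, and their changes differed by -0.69 (SE 0.31, exact permutation p = 0.2).

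Hhip, the secreted ligand trap and a further target of the pathway, had 1 tested probe, probe 2 (chr8:82494280-82494339, mm9, minus strand). Its log2 signal was 7.31, 6.84 and 7.60 in control mice and 7.15, 7.13 and 7.57 in TCE mice. The TCE mice all lay within the range of the control mice. The log2 change was 0.03 (SE 0.23, 95% interval -0.52 to 0.59, limma adjusted p = 0.958). Hhip probe 1 (chr8:82490729-82490788) did not rise above background in any mouse.

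The GLI factors and Sufu were below the level at which the arrays could compare groups. Of 6 probes for Gli1, Gli2, Gli3 and Sufu, 5 stayed near background in all 6 mice. Gli1 probe 2 (chr10:126766967-126767026, mm9, minus strand) was above it in TCE mouse 1 alone, at 4.75, with TCE mice 2 and 3 at 2.61 and 2.72 and control mice between 3.48 and 4.58. Gli1 probe 1 (chr10:126775021-126775080) ranged from 2.70 to 4.29 in control and from 2.74 to 3.96 in TCE mice. Gli2 (chr1:120731255-120731314) ranged from 2.84 to 3.01 in control and from 2.92 to 3.02 in TCE mice, and Gli3 (chr13:15821502-15821561) from 3.42 to 4.30 and from 3.08 to 4.76. The Sufu probes (chr19:46558091-46558150 and chr19:46529259-46529318) ranged from 2.50 to 4.41 in control and from 2.47 to 4.10 in TCE mice. The lowest signal well above background on an array was between 4.54 and 5.02, so these values are bounds on the level rather than measurements, and no fold is given. A fall of Gli1, the target most often read for this pathway, could not be seen from this level.

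**Figure D2:**
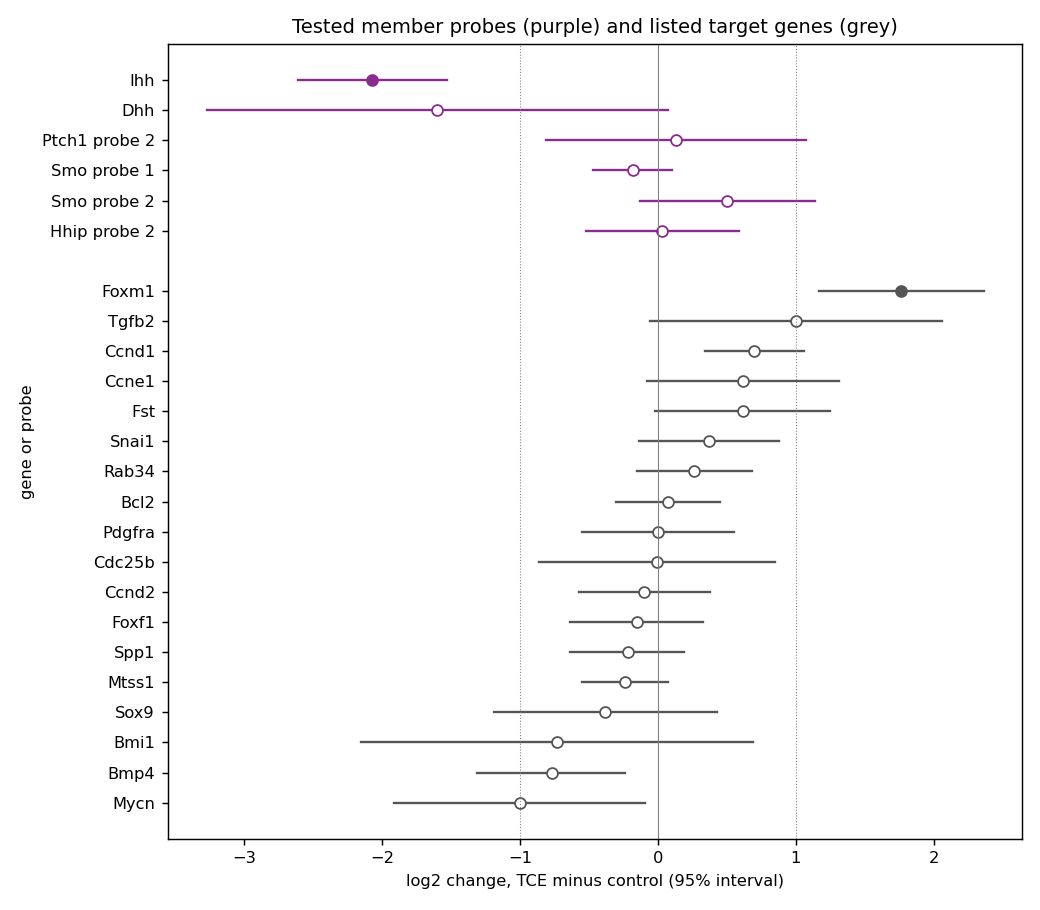
Log2 change in TCE mice relative to control for the tested member probes (purple) and the tested genes of the target list that are reported here (grey), with 95% intervals from limma. Ptch1 probe 1, which was not measurable in control mice, is left out. Filled points passed the test and dotted lines mark a fold of 2. Ihh and Foxm1 are the filled points, on opposite sides of 0. Dhh and Foxm1 entered the test only through the group in which they were higher, so their positions rest partly on values near background.

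Whether Ihh differed from the rest of the pathway was compared within each mouse, as the log2 signal of Ihh minus that of each other tested member probe, a test chosen after the data were examined. Ihh minus Hhip probe 2 was 1.43, 2.54 and 1.36 in control mice and -0.38, 0.17 and -0.78 in TCE mice. Every TCE mouse was lower, and the change of Ihh was below that of Hhip by 2.10 on the log2 scale (difference -2.10, SE 0.47, 95% interval -3.41 to -0.80). The difference from Ptch1 probe 2 was -2.20 (95% interval -3.42 to -0.97). The difference from Smo was -1.88 (-2.57 to -1.20) for probe 1 and -2.57 (-3.47 to -1.67) for probe 2. For each of these 4 probes the groups did not overlap and the exact permutation p was 0.1, or 0.12 adjusted over the 6 probes compared. All 4 differences use the same Ihh values, so they restate the fall of Ihh beside probes that were not called. They are not independent results. Dhh and Ptch1 probe 1 were the others compared, and no difference is given for them because some of their values lay below background.

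**Figure D3:**
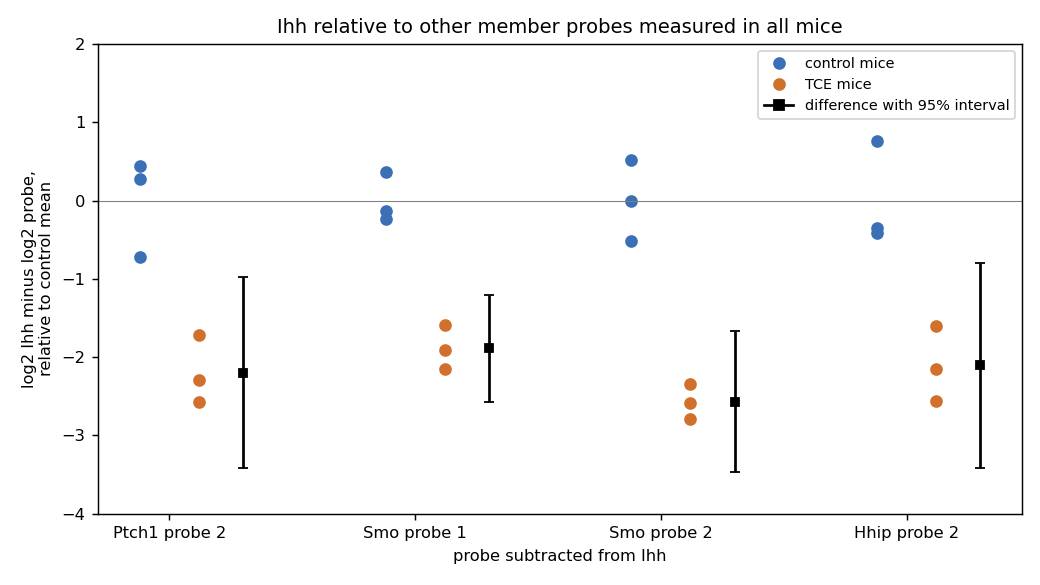
Log2 signal of Ihh minus that of each other member probe well above background in all 6 mice, relative to the control mean (points), and the difference between groups with its 95% interval (black squares). The squares lie between -2.57 and -1.88 for the Ptch1, Smo and Hhip probes, and no interval includes 0. All use the same Ihh values and are not independent.

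Genes known as targets of the pathway in other tissues did not fall together. Of 26 listed genes on the array 19 were tested, each by its brightest tested probe, and 9 were higher and 10 lower in TCE by any amount. The median log2 change was -0.01, beside 0.02 over all 13284 genes tested. In this list 1 gene was called higher and 0 lower, and at an unadjusted p under 0.05 in limma 2 were higher and 2 lower, where 19.1% of all genes tested had such a p (7.11% lower). The gene called was Foxm1, a transcription factor of the cell cycle. Its log2 signal was 4.88, 4.75 and 4.88 in control mice, well above background in 2 of them, and 6.06, 7.03 and 6.71 in TCE mice. It rose by 1.76 on the log2 scale (SE 0.25, limma adjusted p = 0.0282). The groups did not overlap, as was so, with TCE higher, for 15.5% of all tested probes. Foxm1 entered the test through the TCE mice. Its control values lay near the lowest signals well above background on the control arrays (4.54 to 5.02), so the size of the rise is uncertain. The call of Foxm1 did not hold with slide as a block (adjusted p = 0.092) or with the normexp background correction (log2 change 0.76, adjusted p = 0.0564). It was also lost when any mouse other than TCE mouse 1 was left out, with adjusted p values from 0.0553 to 0.124.

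The other targets with a small unadjusted p moved both ways and none passed. Ccnd1, which encodes cyclin D1 of the G1 phase, was at 9.60, 9.33 and 9.51 in control and at 10.28, 9.95 and 10.32 in TCE mice, a log2 change of 0.70 (limma adjusted p = 0.0809). Bmp4, a secreted growth factor, was at 9.78, 9.86 and 10.37 in control and at 9.57, 9.10 and 9.02 in TCE mice, a log2 change of -0.77 (adjusted p = 0.148). Mycn, a growth regulator of the MYC family, had a log2 change of -1.0 (adjusted p = 0.243), or -0.58 without TCE mouse 3 and -0.63 with the normexp background correction.

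The rest of the pathway showed small changes. Among genes for release of the ligand and its co-receptors, 8 of 15 were tested, 3 were higher and 5 lower, and 0 were called. At an unadjusted p under 0.05 in limma 1 of these was lower: Gpc4, a glypican of the cell surface, with a log2 change of -0.31 (adjusted p = 0.208). Gpc3, a glypican that binds Hedgehog ligands, had a log2 change of 0.66 (adjusted p = 0.298), or 0.31 with the normexp background correction, and was well above background in 1 control mouse. Hhat, which attaches palmitate to the ligands, had a log2 change of -0.62 (adjusted p = 0.355).

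Among genes that act between Smo and the GLI factors (kinases, their scaffolds and ubiquitin ligases), 24 of 28 were tested, with 13 higher, 11 lower and a median log2 change of 0.03. In this list 0 were called, and 1 was higher at an unadjusted p under 0.05 in limma. It was Gnas, the G protein subunit that raises cyclic AMP, with a log2 change of 0.29 (adjusted p = 0.247). Itch, a ubiquitin ligase, had a log2 change of -0.33 (adjusted p = 0.343). All changes in this list were between -0.36 and 0.29.

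Of genes of the primary cilium, the organelle in which Smo and the GLI factors meet, 24 of 30 were tested. Of these, 17 were lower in TCE and 7 higher by any amount, where 46.9% of all genes tested were lower, and the median log2 change was -0.07. None was called, and limma gave 1 higher and 0 lower at an unadjusted p under 0.05. That gene was Ofd1, a protein of the basal body, with a log2 change of 0.33 (adjusted p = 0.197). Inpp5e, a phosphatase of the ciliary membrane, had a log2 change of -0.31 (adjusted p = 0.282). Of the genes that the array annotation assigns to the smoothened signaling pathway in GO, members left out, 25 of 41 were tested, with 11 higher, 14 lower, 0 called and 1 higher at an unadjusted p under 0.05. It was Hipk2, a nuclear kinase, with a log2 change of 0.46 (adjusted p = 0.159). Next was Tmem17, a protein of the ciliary base, with a log2 change of 0.34 (adjusted p = 0.327).

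The label liver was borne out by Alb, the hepatocyte gene for albumin, at 18.63 to 18.72 in control and 18.19 to 18.78 in TCE mice. All 10 hepatocyte markers were tested, 5 higher and 5 lower with a median log2 change of -0.01 and 0 called. At an unadjusted p under 0.05 in limma 2 were lower, the apolipoprotein genes Apob (log2 change -0.37) and Apoa1 (-0.31), and 1 was higher, Tat (0.36). The mean level of the list was 16.68 to 16.84 in control and 16.67 to 16.77 in TCE mice. The groups overlapped in this level, and the part of hepatocytes in the change of Ihh was not tested.

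Markers of hepatic stellate cells, which store vitamin A and respond to Hedgehog ligands, were on average lower in TCE mice. Of 13 markers 12 were tested, 9 lower and 3 higher, where 46.9% of all genes tested were lower. Of these, 0 were called and 2 were lower at an unadjusted p under 0.05 in limma, where 7.11% of all genes tested were. The median log2 change was -0.21, beside 0.02 over all genes tested. The mean level of the list was 9.57, 9.33 and 9.19 in control and 9.0, 9.26 and 8.75 in TCE mice, so TCE mouse 2 overlapped the controls. Lrat, the enzyme that esterifies vitamin A, was at 8.08, 8.56 and 7.85 in control and at 7.01, 6.35 and 7.08 in TCE mice, a log2 change of -1.35 (limma adjusted p = 0.0676). Ngfr, the p75 neurotrophin receptor, had a log2 change of -0.97 (adjusted p = 0.0738), and Reln, a secreted matrix protein, of -1.34 (adjusted p = 0.368), with control mouse 1 at 8.57 and the other control mice at 6.38 and 6.41. The collagen genes Col1a1 and Col3a1 had log2 changes of 0.25 and 0.16. Without control mouse 1 the log2 change of Reln was -0.61. The part of stellate cells in the change of Ihh was not tested.

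**Figure D4:**
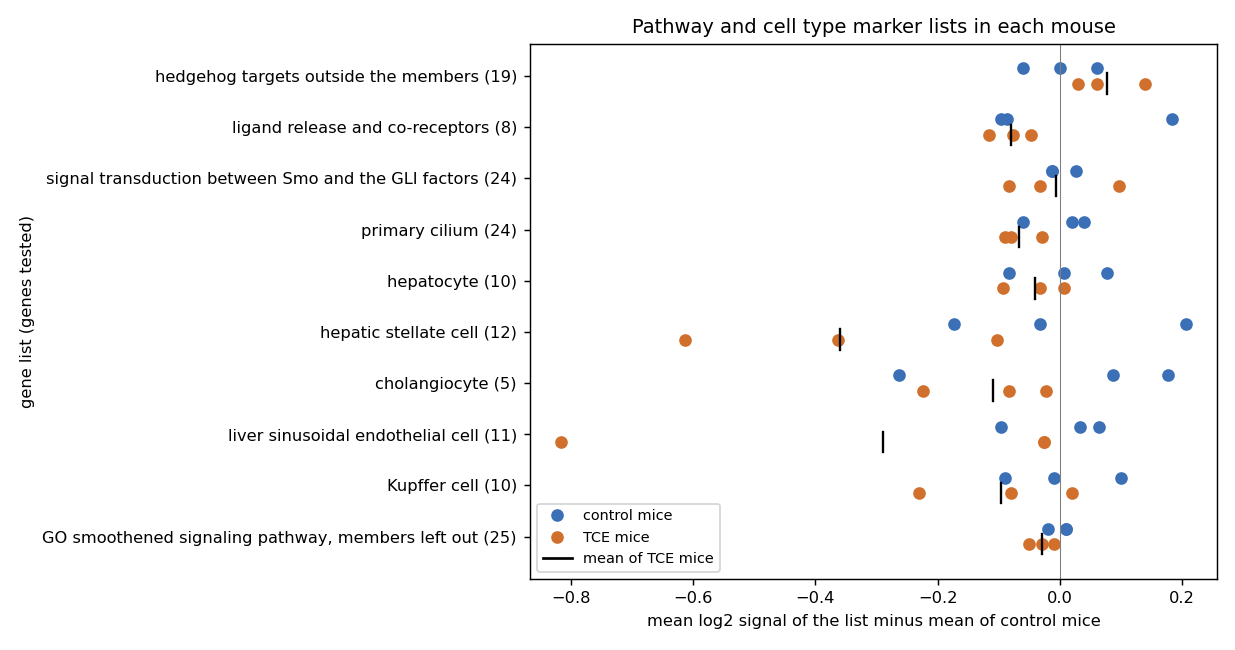
Mean log2 signal over the tested genes of each pathway and marker list in each mouse, minus the mean of the 3 control mice (blue control, orange TCE, black line mean of TCE mice). TCE mouse 1 is the low point of the sinusoidal endothelial list, and the hepatocyte and pathway lists lie close to 0.

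All 11 markers of liver sinusoidal endothelial cells were tested and all 11 were lower on average, where 46.9% of all genes tested were lower. None was called and 0 had an unadjusted p under 0.05 in limma, with a median log2 change of -0.36. The mean level of this list was 9.63 in TCE mouse 1, against 10.42 in both other TCE mice and 10.35 to 10.51 in control mice, so the shift was that of 1 mouse. Stab2, a scavenger receptor of these cells, was at 11.33 in TCE mouse 1, at 12.26 and 12.13 in the other TCE mice and between 12.31 and 12.61 in control mice. Stab1, a related receptor, had a log2 change of -0.40 (adjusted p = 0.354). Ihh was as low in TCE mouse 3 (6.80) as in TCE mouse 1 (6.78), and without TCE mouse 1 its log2 change was -1.98. Any part of these endothelial cells in the change of Ihh was not tested. Kupffer cell markers, 10 of 10 tested, were 8 lower and 2 higher with 0 called and 0 at an unadjusted p under 0.05, and Clec4f, their lectin, had a log2 change of -0.12 (adjusted p = 0.648). The smallest unadjusted p were those of Marco and Emr1, with log2 changes of -0.43 and -0.22. Of 10 bile duct cell markers 5 were tested, 3 lower and 2 higher with 0 called and 0 at an unadjusted p under 0.05, and Krt19, a keratin of bile ducts, had a log2 change of -0.13 (adjusted p = 0.819). For Spp1 and Sox9, which are also in the target list, the log2 changes were -0.22 and -0.38.

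The genes most like Ihh across the mice were those with the highest Pearson correlation over the 6 values, which follow the difference between groups of 3 and get no p. The highest were Slc13a3, a dicarboxylate transporter (r = 0.996), Il12rb1, an interleukin receptor chain (0.9958), Ralb, a small GTPase (0.9935), Tuba4a, an alpha tubulin (0.9901), and St3gal1, a sialyltransferase (0.99). Slc13a3 had log2 signals of 10.92, 11.18 and 11.10 in control mice and 9.61, 10.01 and 9.64 in TCE mice, so that mouse 2 was the highest of each group for both Slc13a3 and Ihh. The log2 change was -1.31 for Slc13a3 (limma adjusted p = 0.0157), -1.23 for Il12rb1 (adjusted p = 0.0269), -0.58 for Ralb, -0.81 for Tuba4a and -0.09 for St3gal1, all smaller in size than that of Ihh. The most opposite were Gm6195 (-0.9972), Cenpp (-0.9942), Pawr (-0.9935), Zfp706 (-0.9934) and Lysmd3 (-0.9933). Cenpp, a centromere protein, had a log2 change of 1.63 (adjusted p = 0.016) and Pawr, a regulator of apoptosis, of 1.02 (adjusted p = 0.0396). Among the members, r with Ihh was 0.78 for Dhh, 0.76 for Smo probe 1, -0.03 for Ptch1 probe 2 and -0.22 for Hhip probe 2.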

How the data were processed

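Total RNA of liver from 6 mice was labelled with Cy3 and hybridized to 1-colour Agilent arrays. The authors extracted spots with Agilent Feature Extraction 10.7.1.1 (submitters' processing notes). The deposited scanner output gives background-corrected and raw intensity values per spot, and a deposited table gives group means on the log2 scale after quantile normalization, equal to those computed here for the member probes. Its 6 detection flag columns were not used. Here log2 of the processed intensity was taken without pseudocount, outlier spots were set missing, spots of a probe averaged, and arrays quantile normalized over the 55681 probes that are not controls. The arrays had 23538 to 24968 probes well above background and 0 saturated spots, and their number limits the precision. Across probes, Pearson's r of any pair of mice was at least 0.978 within a group and at least 0.971 between groups. A probe was tested when it was well above background (a share of its spots over 0.5) in all 3 mice of a group. The two-sided test was lmFit with eBayes of limma (version 3.58.1, R 4.3.3), with tables read by the data.table package (1.17.8). The exact permutation test used all 20 ways to choose 3 of 6 mice. Differences between probes were taken per mouse, with intervals from the spread between mice. The procedure was tested on simulated data.

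The genes named are all members, up to 6 genes past the threshold of each list (or the 2 with the smallest unadjusted p where none passed), the 5 genes most and the 5 least correlated with Ihh, and the markers Alb, Lrat, Krt19, Stab2 and Clec4f. Others (Ccnd1, Bmp4, Mycn, Hhat, Reln, Tat, Col1a1, Col3a1 and neighbours of Ihh) were added after their values were seen. The members and lists were chosen with earlier results of these data known. Alternatives were another normalization, background correction, spot and probe filters, blocks for replicate number and slide, the variance model, each mouse left out, the methods' t-test, thresholds and the choice of probe. A gene of the target list is counted but not reported here. The position of the mm9 probes within exons was not used here.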

Additional observations from a re-analysis of the deposited data

How the results depend on the processing

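The log2 change of Ihh lay between -2.21 and -1.62 under 11 alternatives of processing or model, with adjusted p from 0.0049 to 0.0845. The -2.21 came from slide as a block, which takes control mouse 1 out of the contrast, as leaving that mouse out does. With each mouse left out, Ihh changed by -2.24 to -1.89. Its call was lost without a filter on dim probes (-2.07, adjusted p = 0.0774, 55681 probes tested) and by the methods' t-test after Benjamini-Hochberg adjustment (-2.07, adjusted p = 0.0845), and there 0 member probes and 0 member genes were called lower, as when control mouse 3 or TCE mouse 1 was left out (0 to 1 over the mice left out). The count of target genes called higher was 0 with normexp, with no filter, with a filter on all 6 arrays, with the replicate block, with slide as a block and by the adjusted t-test, and 0 to 1 with each mouse left out. Under the filter on all 6 arrays Foxm1 was not tested. Marker genes called lower were 0, but 1 by the unadjusted t-test (Lrat) and 0 to 1 with each mouse left out, where 1 is Ngfr without TCE mouse 2 (adjusted p = 0.0315). With an unadjusted p and no fold threshold, a setting chosen after seeing the data, 1 marker gene was higher and 4 were lower. Ptch1 probe 2 changed sign with slide as a block (-0.15) and ranged from -0.15 to 0.45 with each mouse left out, being below 0 without control mouse 1 or TCE mouse 2. Hhip probe 2 ranged from -0.17 to 0.21, below 0 without control mouse 2 or TCE mouse 3. Some of these settings used fewer mice or tested more probes, and the cause of the differences was not tested.

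Over all probes 321 were called, 234 higher and 87 lower. The count was 594 by the unadjusted t-test, 35 by the adjusted one, 96 without the filter, 63 with the replicate block, 177 with slide as a block and 124 to 242 with a mouse left out. Other scalings and backgrounds moved the median of all probes by at most 0.02. Across probes, mice of the same number did not deviate together (r = 0.09, 0.01 and -0.09), and the main test treated them as unpaired. The labels do not say whether a number is shared between the groups, and these values cannot exclude it. With the replicate block Ihh stayed at -2.07 (adjusted p = 0.0275) and Foxm1 was not called (adjusted p = 0.12).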

Other observations

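Genes beside Ihh on chromosome 1 were examined after the data were seen. Within 500 kb of the Ihh probe 25 other genes were tested, 13 lower and 12 higher in TCE, with a median log2 change of -0.01 and 0 past the threshold in either direction. At an unadjusted p under 0.05 in limma, 1 was lower and 1 higher. The lower one was Tuba4a, whose probe lies 220.4 kb from that of Ihh, at 14.68, 14.84 and 14.67 in control and 13.85, 13.97 and 13.95 in TCE mice (log2 change -0.81, adjusted p = 0.0269, short of a fold of 2). The higher one was Rnf25, a ubiquitin ligase 351.6 kb away, with a log2 change of 0.63 (adjusted p = 0.0853). Nhej1, a DNA repair gene and the nearest tested neighbour at 22.2 kb, was at 9.76, 9.66 and 9.93 in control and 9.98, 10.07 and 9.84 in TCE mice, with overlap between the groups and a log2 change of 0.18 (adjusted p = 0.513). Cyp27a1, a bile acid synthesis enzyme 209.7 kb away, had a log2 change of -0.38 (adjusted p = 0.295), and Stk36, a kinase of the pathway 309.3 kb away, of -0.21 (adjusted p = 0.707).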
